A study of Mus musculus with 12 samples.

Results

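Neat1 and Malat1 are long noncoding RNAs of the nucleus, and their levels were followed through 12 RNA-seq libraries of mouse embryonic stem cells. They were taken by gene symbol and are 2 of the 39179 genes counted. The pair was selected on a measured value, the higher Neat1 count in reporter-positive than in reporter-negative cells, so the levels of both genes between reporter-positive and reporter-negative cells are given as a description, without a test. Neat1 RNA is the scaffold of paraspeckles, nuclear bodies that hold RNA-binding proteins such as NONO, SFPQ and PSPC1. Malat1 RNA is retained in nuclear speckles, where splicing factors gather. The mature 3′ ends of Malat1 and of the long Neat1 isoform are not made by the usual cleavage and polyadenylation but by RNase P, which cuts in front of a tRNA-like fold, and each is then protected by a triple helix in which U-rich stretches clasp an A-rich end.

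The series concerns signalling by bone morphogenetic proteins (BMPs), which act through the transcription factors SMAD1 and SMAD5. In the first experiment, cells of the genotype BRE-GFP carried a GFP reporter driven by a BMP response element (BRE). Their strain background was mixed CBA and C57Bl/6, they were cultured with FCS and Lif on feeders, and they were sorted by FACS on GFP and on SSEA1, a surface antigen of undifferentiated cells. BRE-positive and BRE-negative cells gave 3 libraries each, collected as 3 pairs at 3 times. In the second experiment, Smad1/5 -/- cells (KO, 4 libraries) were set against Smad1/5 fl/fl cells (FL, 2 libraries) of mixed CD-1, 129/Ola and C57Bl/6 background. These cells were grown in 2i and Lif on gelatin, without feeders. The FL and KO libraries came from 2 parental lines, each giving 1 FL and 2 KO libraries, but which library belongs to which line is not given. Separate cultures are not described, so the spread that p-values rest on is that between libraries and may be partly technical. The KO and FL libraries were tested as independent, although they come from only 2 parental lines.

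Library totals lay between 25862573 and 37319846 counts. All 8 embryonic stem cell markers examined, among them Pou5f1, Sox2, Nanog and Esrrb, were at 38.4 CPM (counts scaled to library size) or higher in every library. Of 20 feeder fibroblast markers, none was at 0 in the BRE libraries, where their summed level was 241 to 370 CPM in BRE-positive and 269 to 432 CPM in BRE-negative cells. In the gelatin cultures the sum was 45.8 to 69.2 CPM in KO and 62.9 to 81.1 CPM in FL cells, with 3 to 6 markers at 0 in KO and 1 to 3 in FL libraries. No pair of replicate libraries was alike to within counting noise: the most alike, KO replicates 3 and 4, had a mean chi-square of 6.18 per gene, where counting alone gives about 1.

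Both genes lie on the minus strand of chromosome 19 in the GRCm38 build. Neat1 (ENSMUSG00000092274) spans chr19:5824708-5845478 and Malat1 (ENSMUSG00000092341) spans chr19:5795690-5802672. Both are annotated as lincRNAs. Malat1 lies downstream of Neat1, with 22035 bases between them. The annotated exons cover 20771 bases for Neat1 and 6983 for Malat1. The stretches that RNase P and the triple helix act on are alike in both RNAs, and are shown for that reason. The first is a 100-base stretch of Malat1 at chr19:5795982-5796081, the second the last 100 bases of Neat1 at chr19:5824708-5824807, both 5′ to 3′ and written as DNA. Capitals mark runs of 10 or more letters found in both in the same order.
Malat1 3′ element: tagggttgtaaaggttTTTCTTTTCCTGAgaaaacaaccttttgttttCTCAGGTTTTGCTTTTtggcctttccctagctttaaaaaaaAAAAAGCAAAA
Neat1 3′ end: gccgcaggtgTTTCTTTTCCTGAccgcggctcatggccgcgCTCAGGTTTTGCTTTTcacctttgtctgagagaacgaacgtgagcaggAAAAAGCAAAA
The shared runs are 13, 16 and 11 letters long and come in the same order. The first and second are the U-rich parts (T in DNA letters), and the last is the A-rich end itself. The A-run just before GCAAAA has 12 letters in Malat1 and 5 in Neat1.

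The bases that follow each element are the tRNA-like part. For Malat1 they are the 61 bases at chr19:5795921-5795981, which hold the known small cytoplasmic RNA mascRNA and still belong to the annotated Malat1 transcript, which runs 292 bases past the element. For Neat1 they are annotated as a separate 56-base small RNA, Gm27702, at chr19:5824652-5824707, directly after its last base. Capitals mark runs of 6 or more letters that come in the same order in both.
Malat1, following bases: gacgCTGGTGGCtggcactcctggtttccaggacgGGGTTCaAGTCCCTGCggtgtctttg
Gm27702: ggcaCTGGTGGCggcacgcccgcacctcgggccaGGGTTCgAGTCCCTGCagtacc
The marked runs are 8, 6 and 9 letters long, and the second of them contains GGTTC, letters typical of a tRNA T-loop. Gm27702 had 0 to 3 counts in any library. Gene counts of this kind do not separate the short from the long Neat1 isoform, nor nuclear Malat1 from the small RNA cut from its end.

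The RefSeq promoter table (GRCm38.p6) had an entry for 1 of the 2 genes, Malat1. Its window, 250 bases before to 50 bases after the start at chr19:5802623-5802922, is shown because the study concerns SMAD signalling. It was searched on both strands for GTCT (the SMAD box), GGCGCC (a GC-rich BMP-SMAD element) and TGACGT (a CRE half-site, bound by CREB and ATF factors). TGACGT and GTCT can share letters where one runs into the other. Capitals mark TGACGT on either strand.
Malat1 promoter: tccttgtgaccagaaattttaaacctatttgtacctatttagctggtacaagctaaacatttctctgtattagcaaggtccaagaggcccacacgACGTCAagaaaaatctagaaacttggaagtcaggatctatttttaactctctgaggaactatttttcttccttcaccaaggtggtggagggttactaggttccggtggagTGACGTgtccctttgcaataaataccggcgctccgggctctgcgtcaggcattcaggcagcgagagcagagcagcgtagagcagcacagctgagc
TGACGT occurred 2 times, and 7.51% of 32851 promoters of this length hold it. GTCT, held by 88.0% of promoters, and GGCGCC, held by 11.9%, were not found in this window.

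Malat1 was far more abundant than Neat1 in every library. Levels are given as deposited TPM, a per-length share of transcripts, which divide by gene length. By mean TPM over the 12 libraries Malat1 stood 4th of 1816 lincRNAs and 113th of 38310 genes, and Neat1 stood 35th and 5547th. Malat1 took 0.145% to 0.407% of all counts in a library, from 48225 to 130044 counts. Neat1 had 2043 to 9763 counts, so that the counting error alone was at most 2.21% for Neat1 and 0.455% for Malat1, well under the spread between libraries.

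The Neat1 level was 31.5, 27.9 and 28.5 TPM in BRE-positive replicates 1 to 3, against 22.6, 9.23 and 17.6 TPM in the BRE-negative replicates. All BRE-positive libraries were above all BRE-negative ones, and BRE-negative replicate 2 stood lowest. In CPM the groups were only just apart, with BRE-positive replicate 2 at 227 and BRE-negative replicate 1 at 222. In the gelatin cultures the Neat1 level was 7.27, 11.7, 8.72 and 8.49 TPM in KO replicates 1 to 4, against 8.61 and 11.9 TPM in the FL replicates. KO replicate 2 was the high one of its group, and the KO and FL ranges overlapped.

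The Malat1 level was 1116, 848 and 1081 TPM in BRE-positive replicates 1 to 3, against 926, 504 and 706 TPM in the BRE-negative replicates. Here the groups overlapped, because BRE-negative replicate 1 was above BRE-positive replicate 2, although the BRE-positive library was the higher one in each pair. The Malat1 level was 486, 548, 537 and 507 TPM in KO replicates 1 to 4, against 418 and 573 TPM in the FL replicates. In TPM all KO values lay between the FL ones. In CPM, KO replicate 2 (2004) was above FL replicate 2 (1922).

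Group means placed Neat1 highest in BRE-positive cells (29.3 ± 1.94 TPM, SD, n = 3), followed by BRE-negative (16.5 ± 6.77, n = 3), FL (10.2 ± 2.30, n = 2) and KO cells (9.04 ± 1.87, n = 4). Only the first step of that order was free of overlap: the BRE-negative and FL ranges overlapped, and so did FL and KO. Malat1 followed nearly the same order, with 1015 ± 146 TPM in BRE-positive, 712 ± 211 in BRE-negative, 520 ± 28.1 in KO and 495 ± 110 in FL cells (SD, n = 3, 3, 4 and 2). The ranges of all neighbours in the Malat1 order overlapped.

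**Figure D1:**
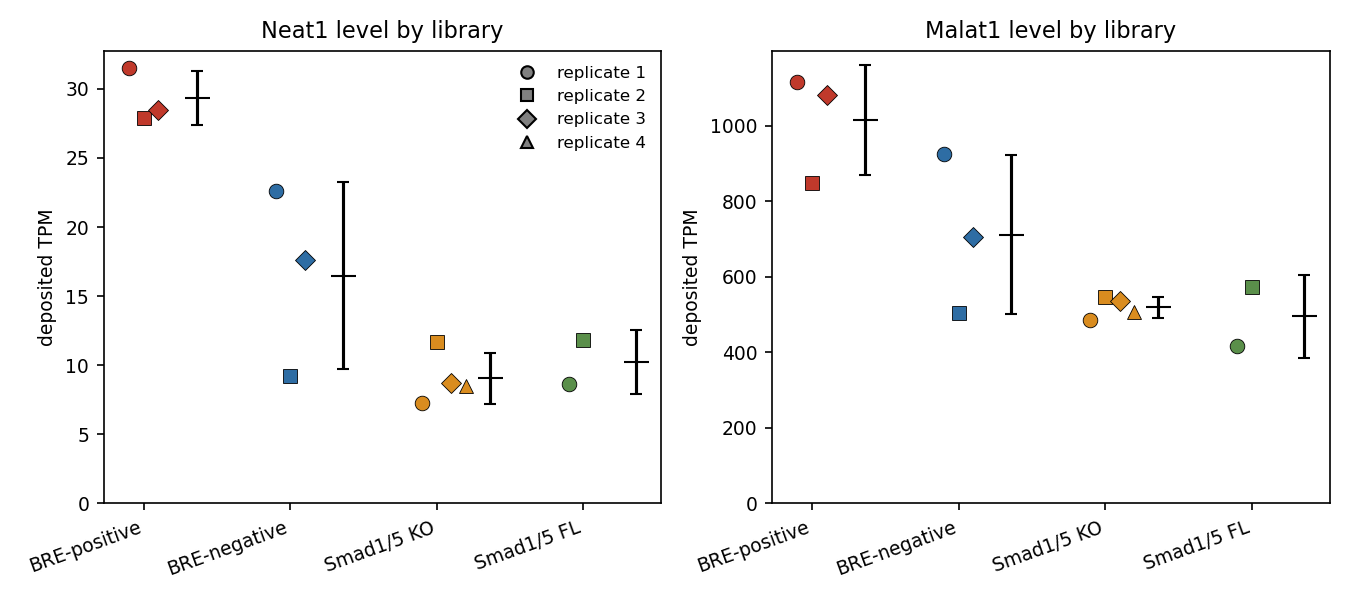
Deposited TPM of Neat1 (left) and Malat1 (right) in each library, with group means and SD beside the points (n = 3, 3, 4 and 2). BRE-positive libraries hold 27.9 to 31.5 TPM of Neat1, above the BRE-negative libraries at 9.23 to 22.6 TPM, while the KO and FL libraries overlap for both genes.

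Between reporter-positive and reporter-negative cells of the same culture, both RNAs stood higher on the positive side in all 3 pairs, and Neat1 by more than Malat1. In the edgeR fit with the pair as a block, the Neat1 level was 1.77-fold that of BRE-negative cells (log2 fold change 0.82 ± 0.13, SE) and the Malat1 level 1.37-fold (0.45 ± 0.06, SE). These values chose the genes or come from the same contrast, and they are given without a test. In that contrast edgeR called 2.97% of 15435 tested genes, 1.96% being higher in BRE-positive cells and 1.02% lower, and in 7.33% of them the 2 groups did not overlap, as for Neat1. List genes counted as called here and further on are edgeR's calls unless another tool is named. In this contrast limma on log2(TPM + 1) called 0 genes, with 2406 at an unadjusted p under 0.05, and edgeR without the pair block called 0, with 343, so that no BRE call named here or further on was kept by either.

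The pairs were unequal. The log2 difference in Neat1 (CPM, BRE-positive minus BRE-negative) was 0.45 in pair 1, 1.44 in pair 2 and 0.55 in pair 3, and in Malat1 it was 0.25, 0.60 and 0.46. Pair 2 had the largest difference for both genes, and in TPM the Neat1 level there was 3.03-fold that of its BRE-negative partner, beside 1.39-fold in pair 1 and 1.62-fold in pair 3. Without pair 2 the fitted Neat1 difference was 0.52 and that of Malat1 0.37.

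Long genes were on the whole higher in BRE-positive cells. The 83 tested genes with at least as many exon bases as Neat1 had a median log2 fold change of 0.21, against 0.00 over all genes tested. Their 5th and 95th percentiles were -0.07 and 0.53, and 0 of the 83 reached the Neat1 value. Of all 15435 genes tested, 128 were at or above it, Neat1 included. Neat1 was chosen for its rise in this contrast, so its place among these genes is a description only. The 3285 genes at least as long as Malat1 had a median of 0.06, and 140 of them were at or above the Malat1 value. With offsets for gene length and GC content the difference was 0.66 ± 0.11 for Neat1 and 0.38 ± 0.07 for Malat1 (log2, SE). Among 286 tested lincRNAs, 3 were called higher and 2 lower in BRE-positive cells, with a median log2 fold change of 0.13. Of all 15435 genes tested, 1.96% were called higher and 1.02% lower.

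The feeder markers and the mitochondrial share differed between the same libraries. The summed level of the 20 feeder markers was lower in the BRE-positive library of each pair (241 against 269, 370 against 421 and 356 against 432 CPM). The mitochondrial genes took 15.8%, 14.4% and 15.4% of counts in BRE-positive replicates 1 to 3, against 12.9%, 13.6% and 14.5% in BRE-negative ones. Of 19 tested feeder markers, 4 were called lower in BRE-positive cells and none higher (21.1%, against 2.97% of all genes, median log2 fold change -0.41). These were Acta2, Col1a2, Tagln and Fbln2, which encode smooth muscle actin, a collagen chain, transgelin and fibulin-2. The Tagln call was lost without pair 3 (edgeR adjusted p = 0.14), with DESeq2 (0.076) and with RLE scaling (0.053). DESeq2 called 3 of the 19 lower, against 323 of all 15435 genes tested in either direction. Without pair 1 the Col1a2 log2 fold change was -0.30, against -0.48 with all pairs. The part of feeder RNA and of mitochondrial RNA in the Neat1 and Malat1 difference was not tested. In these bulk libraries, a larger share of cells with the RNA and more RNA per cell cannot be told apart.

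**Figure D2:**
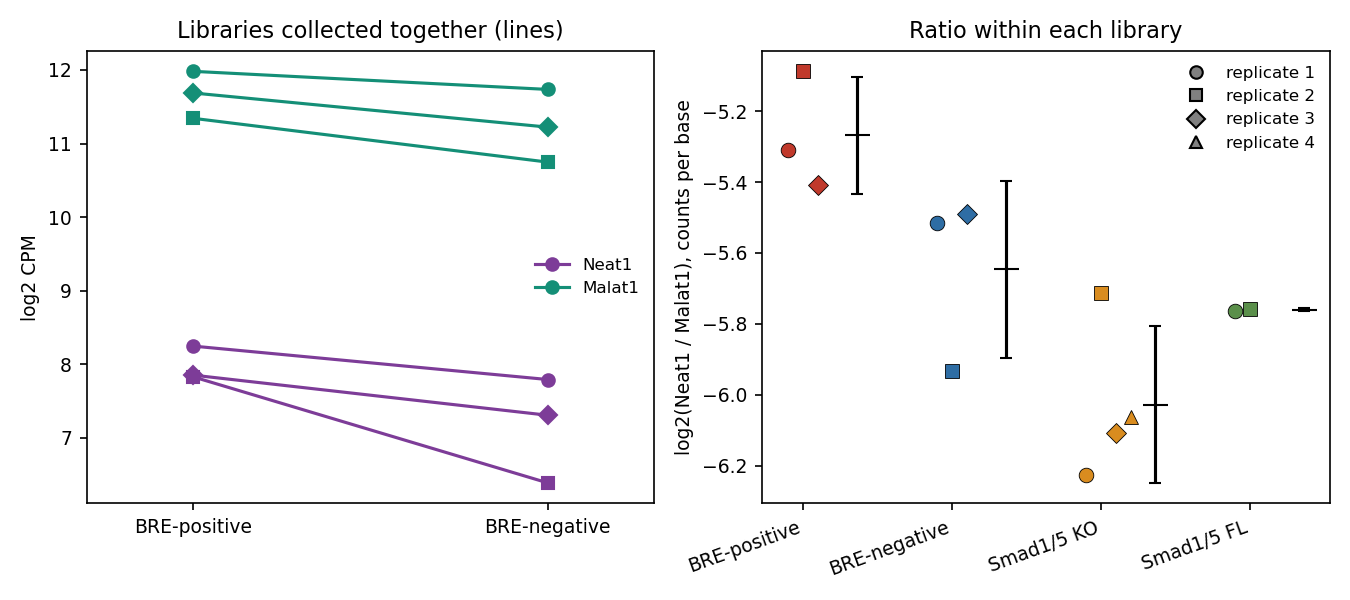
Left: log2 CPM of Neat1 and Malat1 in BRE-positive and BRE-negative libraries, with lines joining libraries collected together; every line is higher at its BRE-positive end. Right: log2 ratio of Neat1 to Malat1 counts per exon base in each library with group means and SD; the mean is highest in BRE-positive libraries (n = 3) and lowest in KO libraries (n = 4).

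The second comparison set KO cells against FL cells and shares no library with the contrast that the genes were chosen on. Smad1 RNA was at 14.5, 17.5, 13.5 and 12.3 CPM in KO replicates 1 to 4, against 19.01 and 18.2 CPM in the FL replicates, and lower in all KO libraries. Smad5 RNA was at 29.9, 25.2, 32.5 and 34.5 CPM in KO, against 33.6 and 31.5 CPM in FL, and these ranges overlapped. Which part of each gene was deleted is not given, so gene-wide counts do not check the genotype. The fit had no term for the parental line, since the labels do not assign one. In their deviations from the group means, KO replicates 1 and 2 correlated positively with FL replicate 1 (0.35 and 0.48, across genes) and KO replicates 3 and 4 with FL replicate 2 (0.48 and 0.45). With 2 FL libraries the FL deviations are mirror images, so each KO library correlates positively with 1 and equally negatively with the other. KO deviations also cancel out over the group, so some split was fixed in advance. Whether the grouping follows the lines was not tested.

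Neither Neat1 nor Malat1 passed the test between KO and FL cells. The log2 fold change was -0.13 ± 0.20 for Neat1 (SE, edgeR quasi-likelihood, adjusted p = 0.74) and 0.11 ± 0.12 for Malat1 (SE, adjusted p = 0.63), with unadjusted p = 0.53 and 0.39. In the same fit 5.03% of 15933 genes were called (1.85% higher and 3.18% lower in KO cells), and in 34.5% of them the KO and FL values did not overlap, which they did for both genes here. DESeq2 and limma also called neither gene, and the adjusted p ranged over the alternatives from 0.19 to 0.92 for Neat1 and from 0.22 to 0.92 for Malat1. The sign of either value rested on a single FL library: without FL replicate 2 Neat1 was at 0.08, and without FL replicate 1 Malat1 was at -0.08.

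A last comparison set the mean of both BRE groups against FL cells, neither of which is labelled with a Smad deletion. The BRE libraries whose values chose the genes are one side of it, so the levels of both genes are again given as a description, without a test. The fitted Neat1 level was 2.17-fold that of FL cells (log2 fold change 1.12 ± 0.30, SE) and the Malat1 level 1.73-fold (0.79 ± 0.22, SE). As background, 55% of 17112 genes passed in this contrast, 26.3% being higher in BRE cells and 28.7% lower, and 59.7% had groups that did not overlap. Serum against 2i, feeders against gelatin, strain, reporter and sorting all differ at once between these groups and cannot be told apart. Feeder markers moved with this contrast, 18 of 20 being called higher in BRE cells with a median log2 fold change of 3.81. Their part in the Neat1 and Malat1 values was not tested. Without FL replicate 1 the log2 fold changes were 0.91 for Neat1 and 0.59 for Malat1.

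Within one library, the ratio of both RNAs does not depend on library scaling. Per exon base there were 39.6, 34.0 and 42.5 Malat1 counts for each Neat1 count in BRE-positive replicates 1 to 3, against 45.8, 61.1 and 44.9 in the BRE-negative ones. The BRE-positive values were all lower, which again describes the contrast that chose the genes. The ratio was 74.9, 52.5, 69.0 and 66.9 in KO replicates 1 to 4, against 54.3 and 54.1 in FL. KO replicates 1, 3 and 4 were above both FL libraries and KO replicate 2 was below them. On the log2 scale of Neat1 to Malat1, KO minus FL was -0.27, with a two-sided exact permutation p = 0.33 over the 15 arrangements of 6 libraries, of which 0.067 is the smallest possible.

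Over the 12 libraries the level of Malat1 was the one most like that of Neat1 among 10913 genes (Pearson r = 0.96 of log2 CPM), and Neat1 was 2nd for Malat1. The other genes closest to Neat1 were Eml5 (r = 0.94), Ddhd1 (0.94), Mss51 (0.93), Syt14 (0.92) and Caprin2 (0.92). Those closest to Malat1 were Caprin2 (0.96), Slc35f5 (0.95), Glp1r (0.94), Eml5 (0.93) and Pnisr (0.93). The median gene had r = -0.10 with Neat1 and -0.09 with Malat1, and the 95th percentiles were 0.80 and 0.78. The libraries come from BRE and gelatin cultures, and a step between them enters each r. So does the step between BRE-positive and BRE-negative cells, on which the genes were chosen. With each group's mean taken off, Neat1 and Malat1 still moved together with r = 0.90, which put Malat1 8th for Neat1 and Neat1 75th for Malat1. The 95th percentile of r was then 0.69 for Neat1 and 0.79 for Malat1. The genes nearest to Neat1 by this measure were Dcaf6 (0.97), Zfp882 (0.96), Parp16 (0.94), Bcdin3d (0.92) and Serac1 (0.92). Those nearest to Malat1 were Prosc (0.97), Rmnd1 (0.97), Eml2 (0.97), Zer1 (0.96) and Stk25 (0.96). Points in both measures share libraries, depth and scaling. Taking off group means leaves in the time of collection that BRE pairs share. Same-numbered BRE libraries deviated together across genes (correlations 0.76, 0.69 and 0.64), so the 12 points are not independent.

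Genes for paraspeckle proteins were next set beside Neat1. Of the 21 paraspeckle protein genes reported here, edgeR and DESeq2 called 0 between BRE-positive and BRE-negative cells. Unadjusted p was under 0.05 for 6 of the 21, against 2817 of all 15435 genes tested. The log2 fold changes of the list ran from -0.15 to 0.19, with a median of -0.02 against 0.00 over all genes. Nono, Sfpq and Pspc1, the core proteins of the DBHS family, had log2 fold changes of -0.12 ± 0.05, -0.02 ± 0.05 and 0.08 ± 0.05 (SE) and did not pass. Rbm14 (0.17 ± 0.06), Hnrnpk (-0.02 ± 0.06) and Tardbp (0.06 ± 0.06), which encode other paraspeckle components, did not pass either.

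Between KO and FL cells the same list had 1 call of 21 (4.76%), close to the 5.03% of all genes called in this contrast. This was Pspc1, which encodes a DBHS protein that marks paraspeckles. Pspc1 was at 72.3, 78.1, 69.7 and 66.0 CPM in KO replicates 1 to 4, against 39.6 and 51.7 CPM in the FL replicates. The groups did not overlap, as for 34.5% of all genes, and Pspc1 was 1.57-fold higher in KO cells (log2 fold change 0.65 ± 0.11, SE, edgeR adjusted p = 0.024). Nono (0.10 ± 0.06), Sfpq (0.06 ± 0.08), Rbm14 (0.27 ± 0.11), Hnrnpk (-0.12 ± 0.05) and Tardbp (-0.05 ± 0.07) did not pass (log2 fold change, SE). Leaving out 1 library ended many calls in this comparison. Leaving out an FL replicate leaves a single FL library, which is then assumed to vary like the KO libraries. Without FL replicate 1, edgeR called 0 of 16580 genes, with 1948 at an unadjusted p under 0.05, so that none of the 15 KO calls named here or further on was kept. Leaving out FL replicate 2 kept 3 of the 15 (Pspc1, Egln1 and Ndrg1), and leaving out KO replicate 3 or KO replicate 4 kept 3 (Ccng1, Eda2r and Snhg12). Without KO replicate 1 all but Meg3 were kept, and without KO replicate 2 all but Aen, Frmd8os and Loxl1. limma on log2(TPM + 1) kept 2 of the 15, and with all 12 libraries in 1 edgeR fit 8 were kept, without Btg2, Ccng1, Gsc, Meg3, Pvt1, Rian and Snhg12.

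Of the genes for cutting and finishing these 3′ ends, 1 changed in BRE-positive cells. The 14 tested genes were those of RNase P subunits, Elac2 for RNase Z, which trims the other end of the tRNA-like RNA, and Trnt1, which adds the CCA end. Of these, 1 was called lower in BRE-positive cells and none higher (7.14%, against 2.97% of all genes). It was Rpph1, the RNA subunit that carries the catalytic activity of RNase P. Rpph1 was at 9070.4, 3431 and 4528 CPM in BRE-positive replicates 1 to 3, against 10261, 7189 and 8155 CPM in the BRE-negative ones. It was lower in the BRE-positive library of each pair, while the groups overlapped (log2 fold change -0.68 ± 0.11, SE, edgeR adjusted p = 0.0061). In KO against FL cells none of the 14 was called by edgeR or DESeq2. Unadjusted p was under 0.05 for 2 of the 14, against 3646 of all 15933 genes tested.

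No gene of nuclear speckles, where Malat1 RNA gathers, was called by edgeR among 20 tested genes for speckle and SR splicing proteins. This held in BRE-positive against BRE-negative cells, with a median log2 fold change of 0.01, and in KO against FL cells, with a median of 0.09. Unadjusted p was under 0.05 for 4 and 5 of the 20, against 2817 of 15435 and 3646 of 15933 genes tested. DESeq2 called 1 of the 20 higher in BRE-positive cells and none in KO cells, against 323 of 15435 and 1498 of 15933 genes tested.

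**Figure D3:**
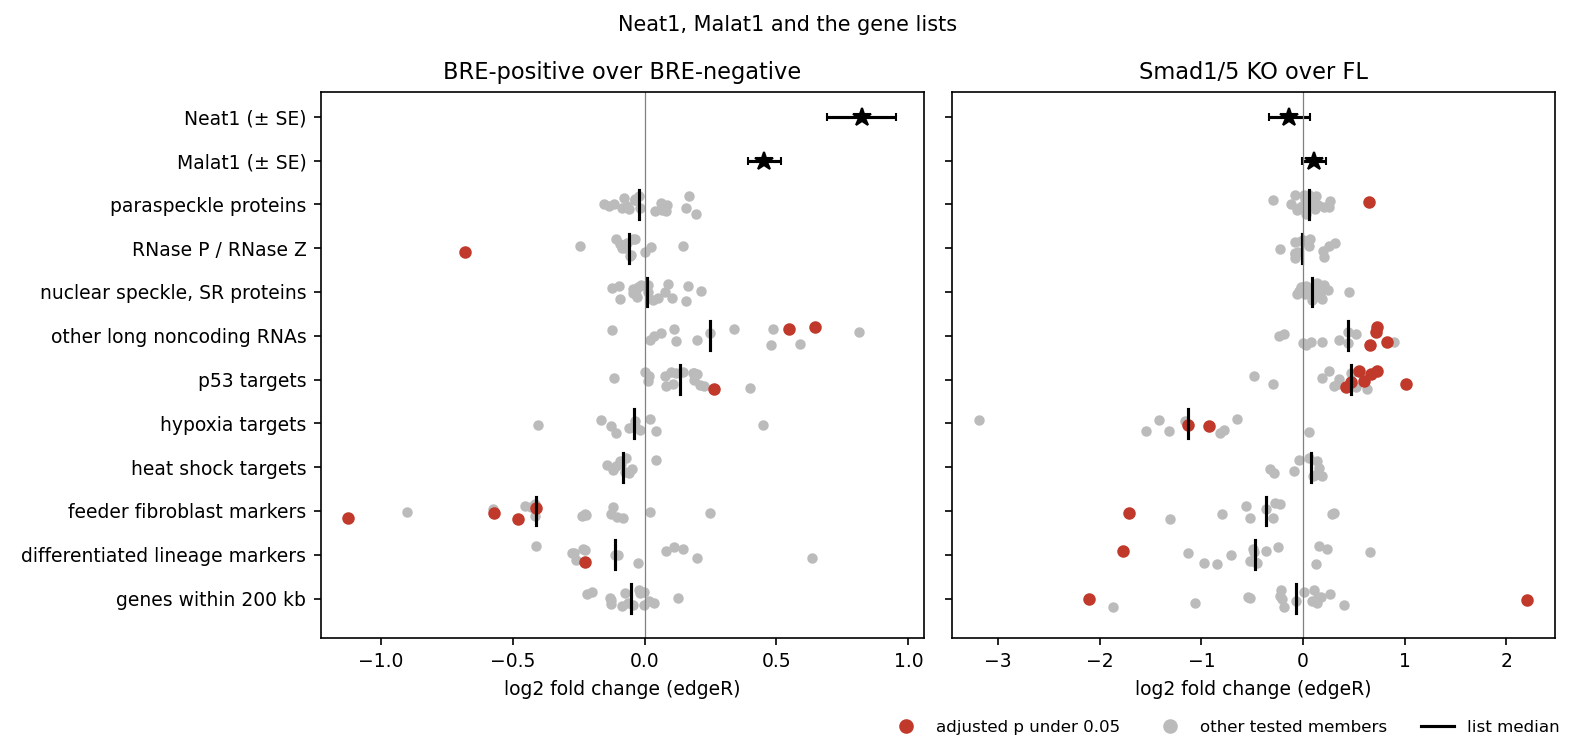
edgeR log2 fold changes of Neat1 and Malat1 (stars, ± SE) and of the tested members of each gene list (points, red where the adjusted p is under 0.05, bars at the list median), for BRE-positive over BRE-negative cells (left) and KO over FL cells (right). The paraspeckle list has 1 call, Pspc1 on the right, and its medians are -0.02 and 0.06.

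Among other long noncoding RNAs, 2 of 15 tested were called higher in BRE-positive cells and none lower (13.3%, against 2.97% of all genes). The median log2 fold change was 0.25. Dleu2, the host transcript of miR-15a and miR-16, was at 33.5, 30.7 and 40.2 CPM in BRE-positive replicates 1 to 3, against 19.4, 20.8 and 27.8 CPM in the BRE-negative ones. The groups did not overlap, as for 7.33% of all genes (1.56-fold, log2 fold change 0.65 ± 0.07, SE, edgeR adjusted p = 3.1e-04). Tsix, the antisense partner of Xist, was called 1.46-fold higher (0.55 ± 0.10, SE, adjusted p = 0.0077). The strand setting of the counting is not given, so Tsix and Xist reads may not be told apart. In KO against FL cells the median was 0.44, and DESeq2 called 7 of 15 higher. Over all 15933 genes tested DESeq2 called 1498 in either direction. The edgeR calls were 4 of 15 higher and none lower (26.7%, against 5.03% of all genes). These were Meg3 and Rian, imprinted transcripts of 1 cluster (0.82 ± 0.17 and 0.72 ± 0.13), Pvt1, the neighbour of Myc (0.72 ± 0.12), and Snhg12, a host of small nucleolar RNAs (0.66 ± 0.09; log2 fold change, SE). Their adjusted p were 0.039, 0.024, 0.019 and 0.014. Over all 378 lincRNAs tested between KO and FL cells, 4 were called higher and 10 lower by edgeR, with a median of 0.00. Of all genes tested, 1.85% were called higher and 3.18% lower.

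Neat1 transcription is known to be raised by p53, by hypoxia-inducible factors and by heat shock factor, and the targets of these pathways were counted for comparison. In BRE-positive against BRE-negative cells 17 of 18 p53 targets had a positive sign and 1 a negative one, with a median of 0.13. Unadjusted p was under 0.05 for 8 of the 18, against 2817 of all 15435 genes tested. The list had 1 call (5.56%, against 2.97% of all genes). This was Trp53inp1, higher in BRE-positive cells (log2 fold change 0.26 ± 0.06, SE, edgeR adjusted p = 0.024). That call was lost without pair 3 (edgeR adjusted p = 0.38) and with length and GC offsets (log2 fold change 0.15, adjusted p = 0.097). None of 12 hypoxia targets (0 at an unadjusted p under 0.05) and none of 10 heat shock targets (2 at an unadjusted p under 0.05) was called in BRE-positive cells by edgeR or DESeq2.

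In KO cells edgeR called 7 of 17 p53 targets higher than in FL cells and none lower (41.2%, against 5.03% of all genes). The median log2 fold change was 0.47, and DESeq2 called 10 higher and 1 lower, against 1498 of all 15933 genes tested. The 4 with the smallest p were Eda2r, a receptor of the tumour necrosis factor family (0.47 ± 0.06), Ccng1, cyclin G1 (0.60 ± 0.09), Btg2, an antiproliferative factor (0.73 ± 0.14), and Aen, an apoptosis-enhancing nuclease (0.43 ± 0.08; log2, SE). Their edgeR adjusted p were 0.012, 0.014, 0.031 and 0.032. Of 11 hypoxia targets, with a median of -1.13, DESeq2 called 4 lower in KO cells, against the same 1498 of 15933. The edgeR calls were 2 lower and none higher (18.2%, against 5.03% of all genes). These were Ndrg1 (-1.13 ± 0.21, adjusted p = 0.030) and Egln1, an oxygen-sensing prolyl hydroxylase (-0.92 ± 0.16, adjusted p = 0.021). Ndrg1 was at -0.64 without FL replicate 1. None of 10 heat shock targets was called by edgeR or DESeq2, and none had an unadjusted p under 0.05. Other cell types were also looked at: 1 of 16 differentiated lineage markers (Gsc, at 0.248 to 0.367 CPM in KO against 0.976 and 1.17 CPM in FL cells) and 1 of 11 feeder markers (Loxl1, at 0.198 to 0.340 CPM in KO against 0.765 and 1.01 CPM in FL cells) were called lower in KO cells. These shares were 6.25% and 9.09%, against 5.03% of all genes. In BRE-positive cells 1 of 15 lineage markers was called lower (6.67%, against 2.97% of all genes in that contrast). It was Tubb3 (-0.23 ± 0.06, edgeR adjusted p = 0.043). The Tubb3 call was lost without pair 2 (0.13) or pair 3 (0.29), with DESeq2 (0.095) and with length and GC offsets (0.059).

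No chromosomal neighbour of the pair was called between reporter-positive and reporter-negative cells. Of 16 genes within 200 kb that were tested and are reported here, edgeR and DESeq2 called 0, and the log2 fold changes ran from -0.22 to 0.13. Unadjusted p was under 0.05 for 2 of the 16, against 2817 of all 15435 genes tested. Frmd8, upstream of Neat1, was at -0.09 ± 0.06 (SE). Annotated small RNAs inside the genes, 1 in Malat1 and 3 in Neat1, had 0 counts in all 12 libraries. They share their bases and strand with the longer gene, and how reads over 2 genes were counted is not given. These counts therefore do not show whether the small RNAs were present.

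Between KO and FL cells edgeR called 1 of 19 tested neighbours higher and 1 lower, against 801 of all 15933 genes tested in either direction. DESeq2 called 2 of the 19 each way, against 1498 of the same 15933. Frmd8os, an antisense transcript that starts 144 bases from the Neat1 start on the opposite strand, had 13, 22, 21 and 23 counts in KO replicates 1 to 4, against 3 and 6 counts in the FL replicates. The groups did not overlap, as for 34.5% of all genes (log2 fold change 2.21 ± 0.46, SE, edgeR adjusted p = 0.038), and the counts were low. Its far end overlaps Frmd8, so with no strand setting known its reads and those of Frmd8 may not be told apart. Ltbp3, which encodes a protein that binds latent TGF-beta, had 15, 36, 14 and 11 counts in KO, against 87 and 87 counts in FL (-2.10 ± 0.39, adjusted p = 0.029). With no strand setting known, Ltbp3 reads may also include those of an overlapping gene. Limma on log2(TPM + 1), which understates low genes, gave 0.92 for Frmd8os and, with no filter, -0.84 for Ltbp3. Frmd8 (0.18 ± 0.09) did not pass.

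**Figure D4:**
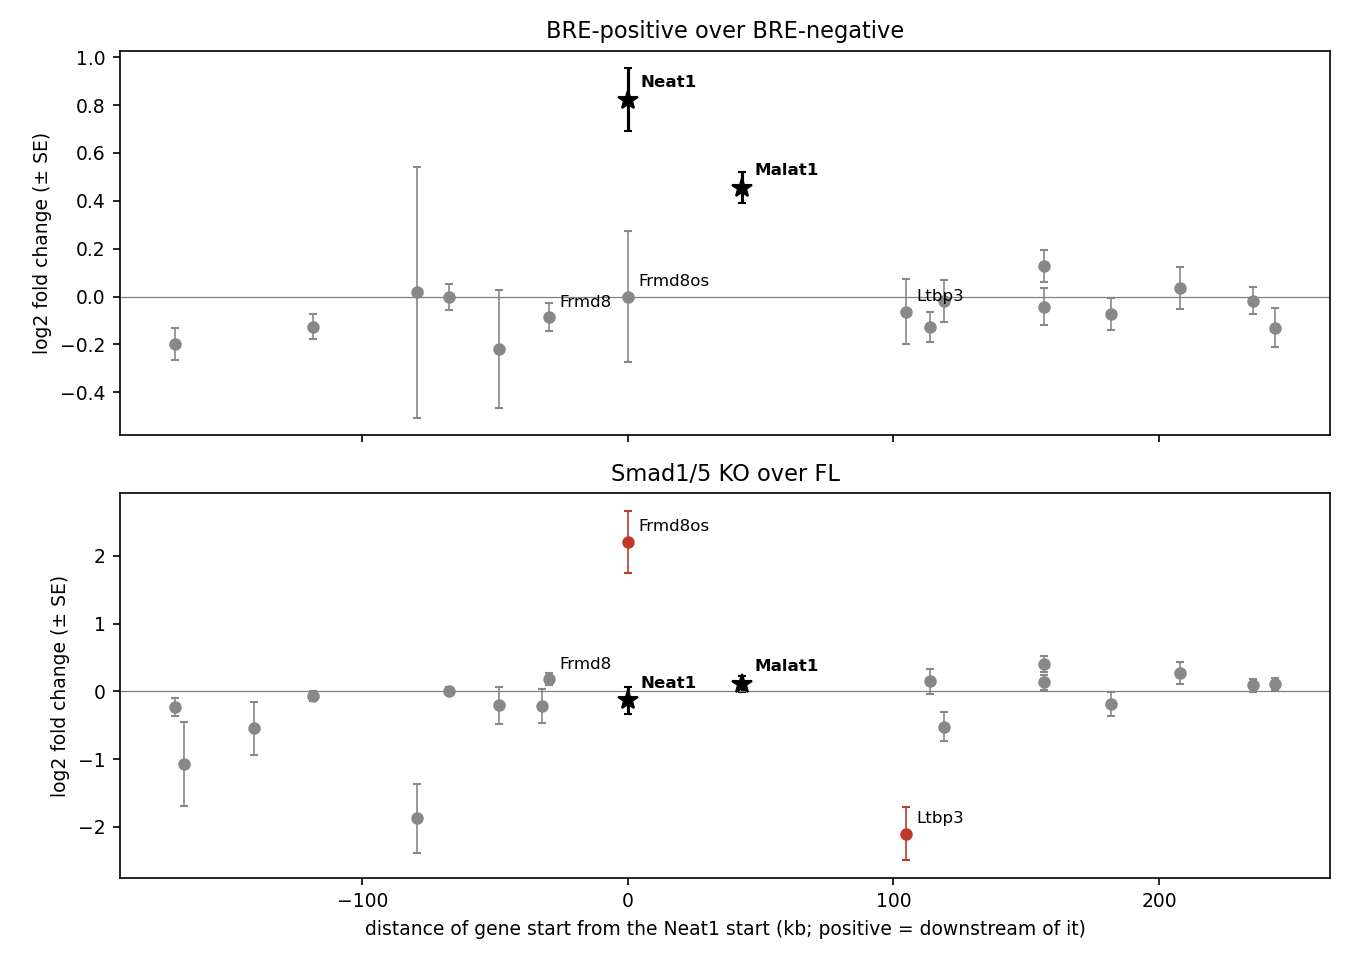
edgeR log2 fold changes (± SE) of the tested genes within 200 kb that are reported here, placed by the distance of their start from the Neat1 start along its strand, for BRE-positive over BRE-negative cells (top) and KO over FL cells (bottom); stars are Neat1 and Malat1, and red points have an adjusted p under 0.05. Neat1 (0.82) and Malat1 (0.45) stand above all neighbours in the top panel, which shows the contrast that the genes were chosen on. In the lower panel Frmd8os (2.21) and Ltbp3 (-2.10) are called and both stars are near 0.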

How the data were processed

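The authors deposited raw read counts, whole numbers for each Ensembl gene in each library. They also deposited TPM values, a normalised signal; tested on the files, these equal the count plus 1 over a fixed length for the gene, rescaled in each library. The libraries were made from column-purified total RNA depleted of rRNA with a strand-keeping kit, per the labels' protocols. The submitters' processing notes name STAR 2.4.1d, featureCounts 1.4.6, DESeq2 1.6.3, CASAVA 1.8.2 and FastQC 0.11.3, and mm10 and GRCm38.p4 are named as builds. The annotation release, strand setting and TPM lengths were not given in the sources used here.

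Counts were tested with edgeR 4.0.16 (R 4.3.3) by its quasi-likelihood test, with TMM scaling, its expression filter (minimum count 10, total 15) and Benjamini-Hochberg adjusted p under 0.05 over all genes tested. The BRE fit had the pair as a block. Per the series' design text both sorted fractions were harvested pairwise, and same-numbered libraries deviated together from their group means (correlations across genes 0.76, 0.69 and 0.64, against -0.58 to 0.07 for other numbers). The KO fit used the 6 Smad1/5 libraries, and BRE cells were set against FL cells in 1 fit of all 12. CPM are TMM-scaled.

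The members and the gene lists were chosen with earlier results of these data known. There were 9 lists of 156 genes, 5 of them not matched in the table, plus the genes within 200 kb. Named are up to 4 called genes per list by smallest p, 6 paraspeckle genes, the nearest tested neighbours reported, and the 5 genes most like each member (mean log2 CPM 1 or more), without predicted genes and pseudogenes. Coordinates, exon lengths and sequences came from the GENCODE M21 annotation and transcripts of GRCm38, and the promoter from RefSeq. A paraspeckle gene and a neighbour are not reported here and enter no list count. The fits were tested on simulated counts. These were drawn with no effect of pair, collection or parental line, so they do not show how the fits handle such effects. Alternatives were DESeq2 1.42.0, RLE scaling, other filters, limma 3.58.1 on log2(TPM + 1) and log2(TPM + 0.1), all 12 libraries in 1 fit, length and GC offsets, the replicate block added or dropped, and each library or pair left out.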

Additional observations from a re-analysis of the deposited data

Results flagged for a closer look

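In the KO group, 3 of 32 sets of 4 KO values tested had 1 library set apart from the other 3 by more than Dixon's 95% critical value for the gap over the range. Chance marks about 1 in 20 such sets. Ccng1, a p53 target, was at 351, 398, 407 and 404 CPM in KO replicates 1 to 4, with replicate 1 low (0.841). Rian, an imprinted noncoding RNA, was at 697, 523, 699 and 679 CPM, with replicate 2 low (0.886). Tagln, a feeder marker, was at 0.238, 0.226, 0.359 and 0.231 CPM, with replicate 3 high (0.908). Neat1, with KO replicate 2 high, was just under the critical value (0.825), and Malat1 was at 0.635.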

How the results depend on the processing

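Neat1 and Malat1 kept the sign of their difference between BRE-positive and BRE-negative cells in all 13 alternatives, at 0.66 to 0.92 for Neat1 and 0.38 to 0.55 for Malat1 (log2) with every pair kept, and at 0.52 to 1.004 and 0.37 to 0.55 with each pair left out in turn. Without the replicate block they were 0.74 and 0.42. Between KO and FL cells neither gene passed in any of 16 alternatives. Leaving out libraries gave -0.33 to 0.082 for Neat1 and -0.083 to 0.32 for Malat1. KO and FL share only 2 replicate numbers (correlations 0.35 and -0.48), which do not pair them, and with a replicate block Neat1 was at -0.03 and Malat1 at 0.17. For BRE against FL cells, leaving out libraries gave 0.91 to 1.35 for Neat1 and 0.59 to 1.02 for Malat1, both given without a test. The log2 ratio of Neat1 to Malat1, KO minus FL, was -0.37 to -0.20 with libraries left out and -0.27 from TPM.

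The numbers of calls depended on the processing. Between BRE-positive and BRE-negative cells, 459 genes and 9 genes of the lists were called. Without a count filter they were 1010 and 20, and with pairs left out 200 to 2225 and 10 to 51. They were 0 and 0 with limma on log2(TPM + 1), on log2(TPM + 0.1) and with no TPM filter (2406, 2244 and 4191 genes at an unadjusted p under 0.05), without the replicate block (343) and with all 12 libraries in 1 fit (516). Between KO and FL cells, 801 genes and 18 list genes were called. They were 1498 and 30 with DESeq2, 1353 and 29 with length and GC offsets, 149 and 2 with limma on log2(TPM + 1), 57 and 1 on log2(TPM + 0.1), 193 and 1 with no TPM filter, and 0 and 0 with the replicate block (2589 at an unadjusted p under 0.05). List genes rose to 30 without a count filter. With libraries left out, an FL omission leaving 1 FL library, the counts were 0 to 857 and 0 to 19. The cause of these changes was not tested.

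Small values near 0 changed sign. In BRE-positive against BRE-negative cells, limma on log2(TPM + 1), with and without the filter, gave 0.0046 for Frmd8, 0.075 for Frmd8os, 0.073 for Hnrnpk and 0.069 for Sfpq, and on log2(TPM + 0.1) it gave 0.0048, 0.11, 0.073 and 0.069. Length and GC offsets gave 0.0065 for Frmd8os and -0.021 for Tardbp. With pairs left out Frmd8os was at -0.088 to 0.12, Hnrnpk at -0.11 to 0.044, Sfpq at -0.083 to 0.019 and Tardbp at -0.018 to 0.11. In KO against FL cells, Sfpq was at -0.032 with the replicate block. Of the other alternatives for the named genes, 357 kept direction and side of the threshold, 168 ended a call and 3 made one. With 2 FL libraries and 3 pairs, these data limit what could be called.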
